A study of Mus musculus with 6 samples.

Results

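The platelet and megakaryocyte genes described here are 8 listed genes: Gp9, Gp1ba, Gp1bb and Gp5, which encode the subunits of a platelet adhesion receptor, Vwf, which encodes its ligand, Gp6, which encodes a collagen receptor, and Pf4 and Ppbp, which encode chemokines stored in platelets. They were found by gene symbol in the platform annotation, and 6 of the 8 matched, each with 1 probe set among the 22206 on the array. Gp1ba and Gp1bb matched no probe set and are not analysed here. The 2 groups were mouse HoxB8 neutrophil progenitors that expressed the K313 form of C/EBPα (K313, 3 arrays) and HoxB8 neutrophil progenitors carrying wild-type C/EBPα (WT, 3 arrays). HoxB8 cells are marrow progenitors held immature by the transcription factor Hoxb8. K313 is a form of C/EBPα associated with acute myeloid leukaemia, and the series asks how it alters the activity of this factor, which drives granulocyte formation. Both groups spent 1 day in the same differentiation medium, with fetal calf serum and stem cell factor, before total RNA was hybridised to Affymetrix Mouse Clariom S arrays. The labels give neither the promoter that drives either C/EBPα form nor the number of clones behind a group, and nothing in them says that the triplicates came from separate cultures. A p-value here therefore reflects the scatter among these arrays alone, which may be technical.

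Platelets are shed by megakaryocytes, which descend from progenitors that also give rise to erythroid cells. At a vessel injury the GPIb-IX-V receptor catches von Willebrand factor, and Gp6 then binds exposed collagen and signals through the Fc receptor gamma chain. Megakaryocyte genes are switched on by GATA factors with their cofactor Zfpm1 (FOG-1) and by ETS factors, and Gp9, Itga2b and Pf4 are textbook targets of these factors.

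Upstream sequence was available for 7 of the 8 genes from RefSeq (build GRCm38.p6). The 250 bases before the annotated start of Gp9 and Gp5 are shown because these are the receptor subunit genes that had a probe set. Those of Pf4 are shown because it is the member whose K313 values were all above its WT values. Each is written 5′ to 3′ on the strand of its gene, with capitals marking a GATAA match (read as TTATC on the other strand) or a TTGCNNAA match.
Gp9, chr6:87777820-87778069, + strand: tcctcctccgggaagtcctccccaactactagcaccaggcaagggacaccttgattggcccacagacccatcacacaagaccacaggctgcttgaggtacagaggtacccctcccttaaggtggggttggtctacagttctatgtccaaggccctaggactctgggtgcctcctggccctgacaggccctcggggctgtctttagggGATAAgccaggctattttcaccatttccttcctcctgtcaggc
Gp5, chr16:30310782-30311031, - strand: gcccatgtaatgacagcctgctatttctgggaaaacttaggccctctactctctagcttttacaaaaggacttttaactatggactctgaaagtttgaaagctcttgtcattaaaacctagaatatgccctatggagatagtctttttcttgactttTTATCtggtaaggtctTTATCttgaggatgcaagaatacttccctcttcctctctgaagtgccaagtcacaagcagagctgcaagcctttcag
Pf4, chr5:90772185-90772434, + strand: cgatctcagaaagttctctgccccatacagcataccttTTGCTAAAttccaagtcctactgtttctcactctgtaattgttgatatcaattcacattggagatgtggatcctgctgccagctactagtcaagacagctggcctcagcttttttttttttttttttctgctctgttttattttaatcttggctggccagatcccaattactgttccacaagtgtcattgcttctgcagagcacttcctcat
The motifs searched on both strands included GATAA, the core of GATA sites, with its longer forms AGATAA and TGATAA, which contain it. The others were CCGGAA, a longer form of the ETS core GGAA, and TTGCNNAA, a loose form of the C/EBP palindrome. GGAA by itself was not searched, so a window without CCGGAA may still hold an ETS core. Gp9 held 1 GATAA, 43 bases before the start, and Gp5 held 2, both within AGATAA, 93 and 77 bases before it. Gp1ba held 2, both within TGATAA, and Gp6 held 1 within AGATAA. The windows of Gp1bb, Ppbp and Pf4 held no GATAA, and none of the 7 held CCGGAA. The single TTGCNNAA match lay in Pf4, 212 bases before the start. GATAA occurs in 22.6% of 32851 mouse promoter windows of the same length, AGATAA in 9.99%, TGATAA in 7.94%, CCGGAA in 12% and TTGCNNAA in 9.56%. A match is a description of the letters, not a binding site.

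Values are log2 expression from RMA, a method that corrects background, brings arrays to a common distribution and summarises the probes of each probe set. Array medians lay between 5.05 and 5.13 in K313 and between 5.01 and 5.06 in WT. Pearson's r across probe sets, which are not independent, was 0.995 to 0.996 among K313 arrays, 0.983 to 0.989 between groups and 0.994 to 0.995 among WT arrays. The groups differed in Y-linked genes. Eif2s3y read 12.37, 12.09 and 12.24 in K313, against 3.11, 2.93 and 7.03 in WT, a change of 7.88 ± 0.83, and Uty changed by 7.23 ± 0.65 and Kdm5d by 4.63 ± 0.33 (SE; limma adjusted p = 9.04e-05, 2.83e-05 and 5.58e-06). WT replicate 3 read above the other WT arrays in all 3. It did so too in Chil3 on chromosome 3, named after its values were seen. Chil3 read 12.83, 14.00 and 14.64 in K313, against 3.58, 3.26 and 8.78 in WT. The member changes and the counts over the platelet, coagulation and megakaryocyte lists together are therefore also given without WT replicate 3. Hoxb8 averaged 8.34 ± 0.25 in K313 and 12.98 ± 0.52 in WT (SD, n = 3 each), so the Hoxb8 level, the Y-linked genes and the form of C/EBPα differed together, and their parts in the results cannot be told apart. Cebpa averaged 14.07 ± 0.33 in K313 and 14.58 ± 0.25 in WT (SD, n = 3 each; limma adjusted p = 0.212). Whether either probe set detects the introduced copy is not stated. All 7 measured neutrophil progenitor markers were far above background in both groups: their mean level over genes ran from 14.97 to 15.25 in the K313 arrays and from 14.09 to 14.32 in the WT arrays.

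No detection calls were used, so the low end was described by 1414 probe sets of odorant and pheromone receptors, genes known for their role in sensory neurons. Of these, 3 were called higher in K313 and 0 lower with limma. Their mean levels had a median of 3.58 in K313 and 3.57 in WT, and a 95th percentile of 4.73 in K313 and 4.68 in WT. A mean at or below the 95th percentile of its group is said here to lie within the receptor range, and one over it above that range. The highest receptor means were 8.17 in K313 and 8.61 in WT. Probes differ in affinity, so this range is a guide and not a limit of detection.

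Gp9 was the member that fell. It encodes glycoprotein IX, the small leucine-rich subunit that holds the GPIb receptor together on the cell surface. Its log2 level was 6.28, 6.23 and 6.72 in the K313 arrays, against 9.04, 8.99 and 9.25 in the WT arrays. The 3 K313 values all lay below the 3 WT values, with a gap between the groups much wider than the spread within either. The means were 6.41 ± 0.27 in K313 and 9.09 ± 0.14 in WT (SD, n = 3 each), a change of -2.68 ± 0.18 (SE, K313 minus WT; 95% interval -3.08 to -2.29; limma adjusted p = 3.43e-06), or a 6.42-fold lower signal in K313. Both means lay above the 95th percentile of the receptor probe sets, with 99.9% of those probe sets below the K313 mean. WT replicate 3 was the highest of the WT arrays here, and without it the change was -2.6 (adjusted p = 2.96e-05). Fewer cells with Gp9 transcripts and less transcript per cell cannot be told apart in bulk RNA. In absolute size this change was number 186 of 22206, and among falls it was number 59.

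Gp5 encodes glycoprotein V, the subunit of the same receptor that thrombin cleaves. It read 3.24, 3.13 and 2.70 in K313, against 3.34, 3.57 and 3.76 in WT. The K313 values were again all lower, but both groups sat within the range of the receptor probe sets, where 11.5% of those probe sets had a lower mean in K313 and 48.7% in WT. The change of -0.53 ± 0.19 (SE) did not pass (limma adjusted p = 0.145; 95% interval -0.95 to -0.11 before adjustment). Without WT replicate 3 the change was -0.43 (adjusted p = 0.36).

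Vwf encodes von Willebrand factor, the ligand of the receptor, made by megakaryocytes and endothelial cells. It read 5.04, 5.46 and 5.38 in K313, against 5.10, 5.14 and 5.03 in WT. The groups overlapped, and the change of 0.20 ± 0.16 (SE) did not pass (limma adjusted p = 0.616; 95% interval -0.16 to 0.57; 0.17 without WT replicate 3). Its means lay just above the 95th percentile of the receptor probe sets in both groups. Of 7 endothelial markers, Cdh5, Kdr, Tek, Tie1 and Emcn averaged at or below that percentile in both groups, and the mean level of the 7 ran from 4.92 to 5.06 in the K313 arrays and from 4.64 to 4.84 in the WT arrays. Their part in the Vwf values was not tested. Pecam1, which leukocytes also express, rose by 2.62 ± 0.27 (SE; limma adjusted p = 8.41e-05), and Eng, which progenitors also express, changed by -0.83 ± 0.19 (adjusted p = 0.0225; lost in 5 of 14 alternatives, with a highest adjusted p of 0.201).

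Gp6 encodes the platelet collagen receptor glycoprotein VI. It read 3.28, 3.77 and 3.16 in K313, against 3.23, 3.43 and 3.19 in WT. All 6 values lay within the range of the receptor probe sets and the groups overlapped, with a change of 0.12 ± 0.19 (SE; limma adjusted p = 0.828; 95% interval -0.30 to 0.54). The change was 0.07 without WT replicate 3 and -0.06 without K313 replicate 2.

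The chemokine genes Pf4 (platelet factor 4, Cxcl4) and Ppbp (pro-platelet basic protein, Cxcl7) lie next to each other in the CXC chemokine cluster of mouse chromosome 5. Pf4 read 5.15, 5.09 and 5.34 in K313, against 4.73, 4.66 and 5.06 in WT. The K313 values were all higher, though K313 replicate 2 and WT replicate 3 nearly met, and the change of 0.38 ± 0.17 (SE) did not pass (limma adjusted p = 0.272; 95% interval 0.01 to 0.75 before adjustment). Without WT replicate 3 it was 0.50 (adjusted p = 0.17). Ppbp read 3.05, 2.96 and 3.21 in K313, against 3.71, 3.63 and 3.50 in WT. The K313 values were all lower, and the change of -0.54 ± 0.15 (SE; 95% interval -0.88 to -0.20 before adjustment) did not pass (limma adjusted p = 0.0614; 0.0916 without WT replicate 3). It passed with a common median (0.0332), an intensity trend (0.0393) and quantile normalization (0.0415). Ppbp lay within the receptor range in both groups and Pf4 just above its 95th percentile. The difference between the Pf4 and Ppbp changes was not tested.

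Of the 6 measured members, 1 fell and 0 rose with limma, and at an unadjusted p under 0.05 the members lower in K313 were Gp9, Gp5 and Ppbp and the member higher was Pf4, where 9.04% of all probe sets were lower and 8.79% higher at that threshold. Of all probe sets 7.75% were called in either direction, 3.97% as lower in K313 and 3.77% as higher. The groups did not overlap in 4 members, Gp9, Gp5 and Ppbp with K313 lower and Pf4 with K313 higher, where 21.9% of all probe sets showed no overlap (10.9% with K313 lower and 11.0% with K313 higher). The median change of the 6 was -0.21, against 0.02 over all probe sets. Gp5, Gp6 and Ppbp averaged within the receptor range in both groups.

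**Figure D1:**
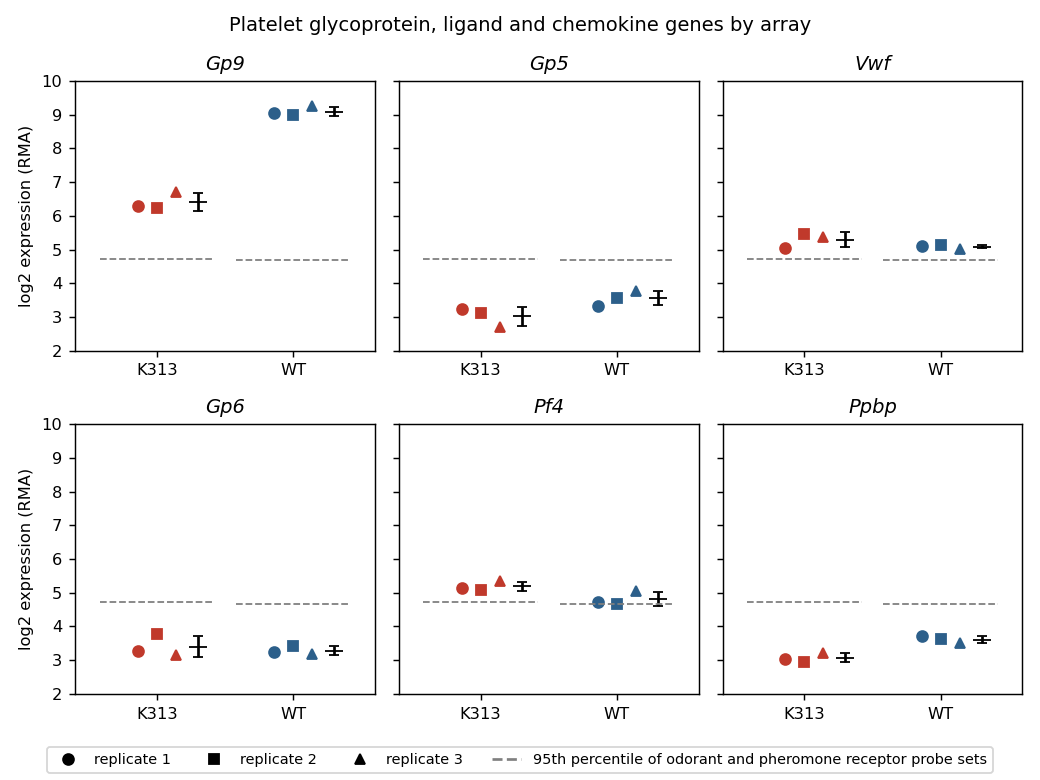
log2 expression (RMA) of the 6 measured genes in each array, K313 in red on the left and WT in blue on the right, with replicates by symbol, the mean ± SD beside them in black and the 95th percentile of odorant and pheromone receptor probe sets dashed. Gp9 lies between 6.23 and 6.72 in K313 and between 8.99 and 9.25 in WT, while Gp5, Gp6 and Ppbp lie below the dashed lines.

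Neither measured gene next to Gp9 passed the test. Efcc1, the nearest measured gene before it, differed by 0.05 ± 0.16 and Rab43, a small GTPase gene after it, by -0.06 ± 0.19 (SE; limma adjusted p = 0.921 and 0.931). Across the 14 measured neighbours of the 8 genes that are not members, 0 passed in either direction with limma and 2 had lower K313 values without overlap. Of all probe sets 7.75% passed in either direction and 10.9% had lower K313 values without overlap, so 2 of 14 is near that share. These 2 were Atp13a3 beside Gp5 (-0.66 ± 0.18, SE; adjusted p = 0.0567) and the tetraspanin Cd9, the nearest measured gene before Vwf (-0.67 ± 0.19, SE; adjusted p = 0.0605), and no other neighbour had an unadjusted p under 0.05. Of the 2, 1 or both passed under some alternatives. Gata2, the GATA factor of progenitors and early megakaryocytes, lies further along the same chromosome from Gp9, a region looked at after the values were seen. Between them 9 genes were measured. Their changes ran from -1.09 to 0.25, and 1 passed, the DNA repair gene Hmces (-1.09 ± 0.21, SE; adjusted p = 0.00817), with Rab43, Isy1, Cnbp and Copg1 between it and Gp9.

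**Figure D2:**
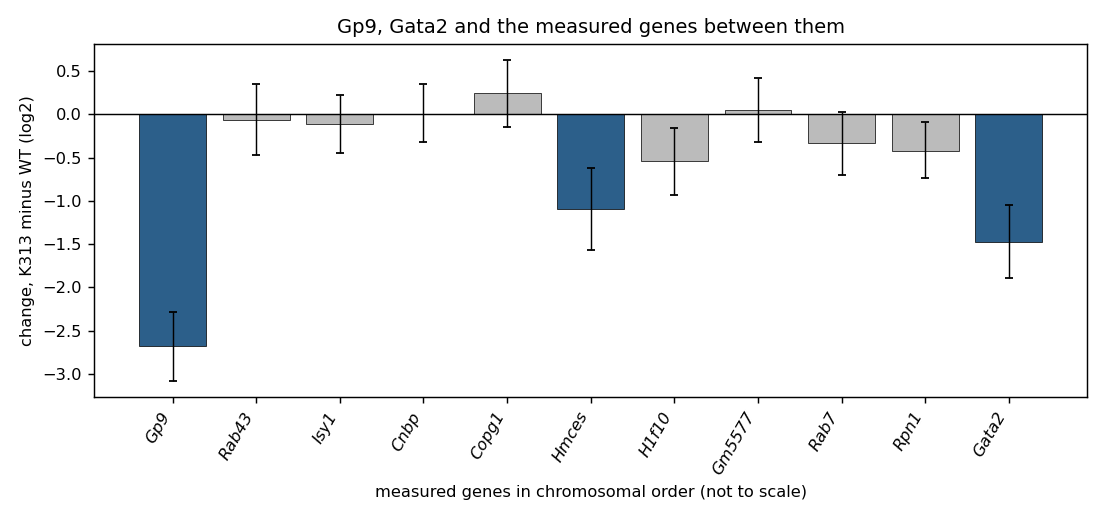
Change in log2 expression, K313 minus WT, of Gp9, Gata2 and the 9 measured genes between them, in chromosomal order and not to scale, with 95% intervals. Bars in blue passed the threshold: Gp9 at -2.68, Hmces at -1.09 and Gata2 at -1.47.

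Of 22 measured transcription factors of megakaryocytes, 6 were lower in K313 (27.3%) and 1 higher, where 3.97% and 3.77% of all probe sets were called, and the median change was -0.29. In both groups 1 of the 22 averaged within the receptor range, against 9804 of the 22206 probe sets. Probe sets at that level are seldom called, so these shares are not matched for expression level. Gata1, a factor that acts in megakaryocytes and erythroid cells among others, read 7.27, 7.56 and 6.58 in K313, against 11.08, 10.66 and 10.73 in WT. The groups lay far apart, and the change of -3.69 ± 0.24 (SE; limma adjusted p = 3.31e-06) exceeded that of Gp9 in size. Gata2 read 12.66, 12.43 and 12.85 in K313, against 14.31, 14.26 and 13.79 in WT, a change of -1.47 ± 0.19 (SE; limma adjusted p = 0.000441). Mef2c, a factor that acts in megakaryocyte maturation, changed by -1.66 ± 0.16 (adjusted p = 5.54e-05). The remaining falls, named after their values were seen, were Gfi1b, a repressor needed for platelet formation (-1.74 ± 0.25), the GATA cofactor Zfpm1 (-1.34 ± 0.22) and Nfe2, which drives the release of platelets (-0.79 ± 0.16; limma adjusted p = 0.001, 0.00242 and 0.0106). Lmo2, a bridging cofactor in GATA and Tal1 complexes, rose by 2.17 ± 0.20 (SE; limma adjusted p = 3.54e-05). It read 12.55, 12.46 and 12.70 in K313, against 10.56, 9.97 and 10.68 in WT. The ETS factor Fli1, also named after its values were seen, differed by -0.25 ± 0.15 and did not pass (adjusted p = 0.459). Without WT replicate 3 the counts were again 6 lower and 1 higher, and Gata1 changed by -3.73. With an ordinary variance for each probe set, in place of the shrunken variance of limma, the counts were 2 lower and 1 higher. The calls of Gata2, Gfi1b, Zfpm1 and Nfe2 were lost in that setting.

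**Figure D3:**
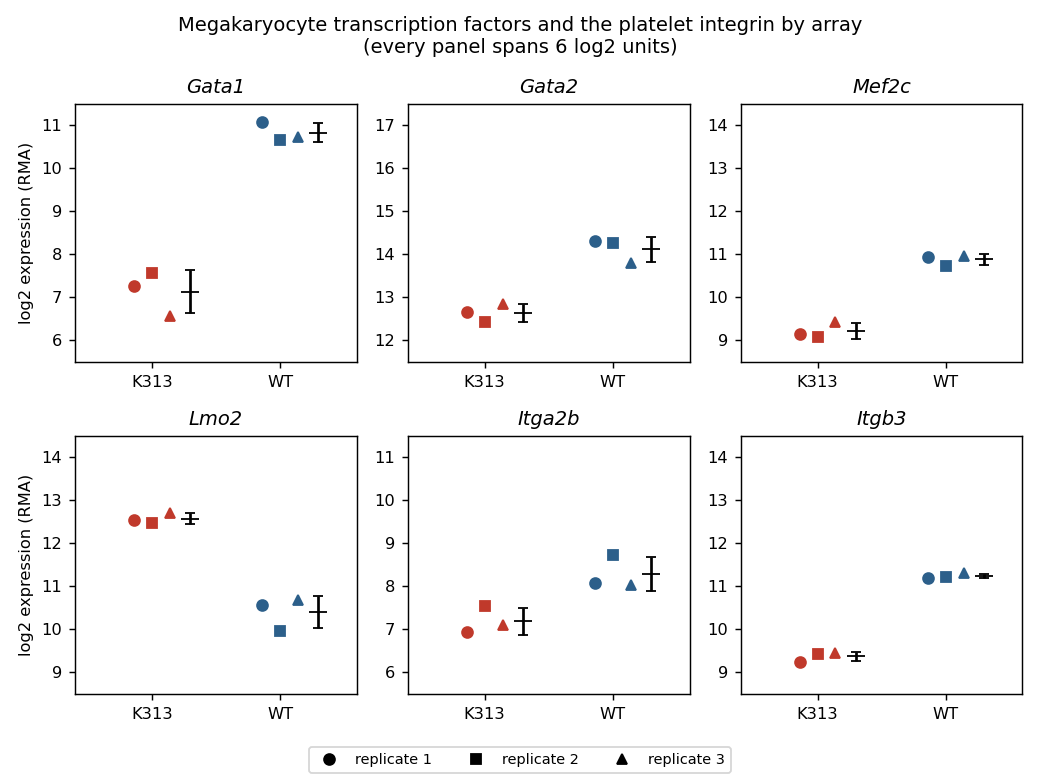
log2 expression (RMA) of Gata1, Gata2, Mef2c, Lmo2, Itga2b and Itgb3 in each array, K313 in red on the left and WT in blue on the right, with the mean ± SD in black and every panel spanning the same range of log2 units. Lmo2 is the gene with K313 above WT, with means of 12.57 in K313 and 10.40 in WT.

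Among platelet surface receptors, 4 of 23 were lower in K313 (17.4%) and 2 higher (8.70%), where 3.97% and 3.77% of all probe sets were called. The median change of the list was -0.08. The subunits of the platelet fibrinogen receptor both fell. Itgb3 (integrin β3) read 9.25, 9.42 and 9.44 in K313, against 11.20, 11.22 and 11.30 in WT, a change of -1.87 ± 0.15 (SE; limma adjusted p = 1.15e-05). Itga2b (integrin αIIb), which is also a marker of megakaryocyte progenitors, read 6.93, 7.53 and 7.09 in K313, against 8.07, 8.73 and 8.03 in WT. Its change was -1.09 ± 0.23 (SE; adjusted p = 0.0114), and the call was lost without K313 replicate 1, without K313 replicate 3 and with ordinary variance per probe set (highest adjusted p = 0.208). P2rx1, an ATP-gated channel of platelets, changed by -2.42 ± 0.23 (adjusted p = 4.95e-05), and Pear1 by -1.31 ± 0.22 to a K313 mean within the receptor range (adjusted p = 0.00298). Clec1b, the podoplanin receptor CLEC-2, rose by 1.07 ± 0.20 (adjusted p = 0.00532), and P-selectin, Selp, named after its values were seen, rose by 1.12 ± 0.21 to 4.69 ± 0.39 in K313, against 3.58 ± 0.22 in WT (SD, n = 3 each; limma adjusted p = 0.0065), both means within the receptor range. Of the megakaryocyte markers Tubb1, the platelet tubulin, and Treml1, neither passed: Tubb1 averaged 4.92 in K313 and 4.81 in WT, and Treml1 4.30 in K313 and 4.20 in WT.

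The intracellular partners of GPIb-IX-V and Gp6 include 3 of 12 that fell (25.0%) and 0 that rose with limma, and their median change was -0.24. Of all probe sets 3.97% were called lower and 3.77% higher. At an unadjusted p under 0.05 no member of this list was higher either. Fyn, a Src family kinase that starts Gp6 signalling, changed by -2.16 ± 0.22, the adaptor Lat by -1.12 ± 0.18 and filamin A, Flna, which anchors GPIb to actin, by -0.95 ± 0.16 (SE; limma adjusted p = 6.94e-05, 0.00186 and 0.00307). Plcg2, the phospholipase downstream of them, differed by -0.64 ± 0.20 (adjusted p = 0.0935). The Fc receptor gamma chain Fcer1g, named after its values were seen as the partner of Gp6, was abundant in both groups, at 15.79 ± 0.08 in K313 and 15.92 ± 0.05 in WT (SD, n = 3 each; limma adjusted p = 0.752).

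Among 24 granule and coagulation genes, 4 rose (16.7%) and 3 fell (12.5%), where 3.77% of all probe sets rose and 3.97% fell. The median change of the list was 0.11. Thbs1, thrombospondin 1, an abundant platelet granule protein that monocytes also make, rose by 3.44 ± 0.33, reading 13.77, 12.65 and 13.07 in K313, against 9.20, 9.53 and 10.43 in WT. F13a1, the A subunit of coagulation factor XIII, rose by 2.95 ± 0.26, reading 14.05, 14.06 and 14.05 in K313, against 11.17, 10.44 and 11.69 in WT (limma adjusted p = 4.7e-05 for Thbs1 and 2.72e-05 for F13a1). F10, coagulation factor X, changed by -2.55 ± 0.16 (adjusted p = 2.91e-06), and Vamp8, a SNARE of platelet granule release, by -1.59 ± 0.22 (adjusted p = 0.000757). Rab27b, a GTPase of dense granule transport named after its values were seen, rose by 1.74 ± 0.26 (adjusted p = 0.00135), with a WT mean of 4.76 close to the receptor range. F7 and Tgfb1 were the remaining calls and were also named after their values were seen. F7, coagulation factor VII, rose by 1.16 ± 0.25 (adjusted p = 0.0135), a call lost in 5 of 14 alternatives (highest adjusted p = 0.239), and Tgfb1, a growth factor stored in platelets, changed by -0.83 ± 0.16 (adjusted p = 0.00885). Without WT replicate 3 the counts were 3 higher and 3 lower.

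In the list of cytoskeleton and platelet formation genes, 4 of 20 fell (20.0%) and 2 rose (10.0%), against 3.97% and 3.77% of all probe sets. The median change of the list was -0.27. Arhgap6, a GTPase-activating protein, changed by -2.19 ± 0.18 and the alpha tubulin Tuba8 by -1.51 ± 0.17 (SE; limma adjusted p = 1.23e-05 and 0.000143). Pdlim1, a scaffold of the actin cytoskeleton, rose by 2.54 ± 0.19 and tropomyosin 4, Tpm4, by 1.23 ± 0.20 (adjusted p = 6.71e-06 and 0.00235). The other falls, named after their values were seen, were the non-muscle myosin Myh9 (-0.76 ± 0.15; adjusted p = 0.00879) and talin, Tln1, which activates integrins (-0.54 ± 0.14; adjusted p = 0.0451). The Tln1 call was lost with the replicate block and whenever any array was left out (highest adjusted p = 0.147).

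Over the 101 genes of these 5 lists together, 20 were lower (19.8%) and 9 higher (8.91%), with a median change of -0.08. Of all probe sets 3.97% were lower and 3.77% higher. The shares of these lists, and of the cell type lists below, were likewise not matched to all probe sets by expression level. Without WT replicate 3 the counts were 19 lower and 8 higher. With an ordinary variance for each probe set, without the shrinkage toward a common value that limma applies, 8 were lower and 2 higher. Gata1, Mef2c and Itgb3 were still called then, while no partner of GPIb-IX-V and Gp6 and no rise among the surface receptors and granule genes was. In that setting 249 of all 22206 probe sets were lower and 247 higher.

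A list of 9 other CXC chemokine genes of chromosome 5, not all next to Pf4 and Ppbp, was measured. Of these, 0 passed in either direction with limma, where 7.75% of all probe sets did, and 1 had an unadjusted p under 0.05. That gene, Cxcl15, differed by -0.40 ± 0.17 (SE; adjusted p = 0.236), Cxcl5 by -0.37 ± 0.21 and Cxcl3, the gene after Pf4, by -0.01 ± 0.20. The median change was 0.09. In both groups 7 of the 9 averaged within the receptor range, Cxcl15 and Cxcl5 among them, which limits what the lack of calls can show.

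**Figure D4:**
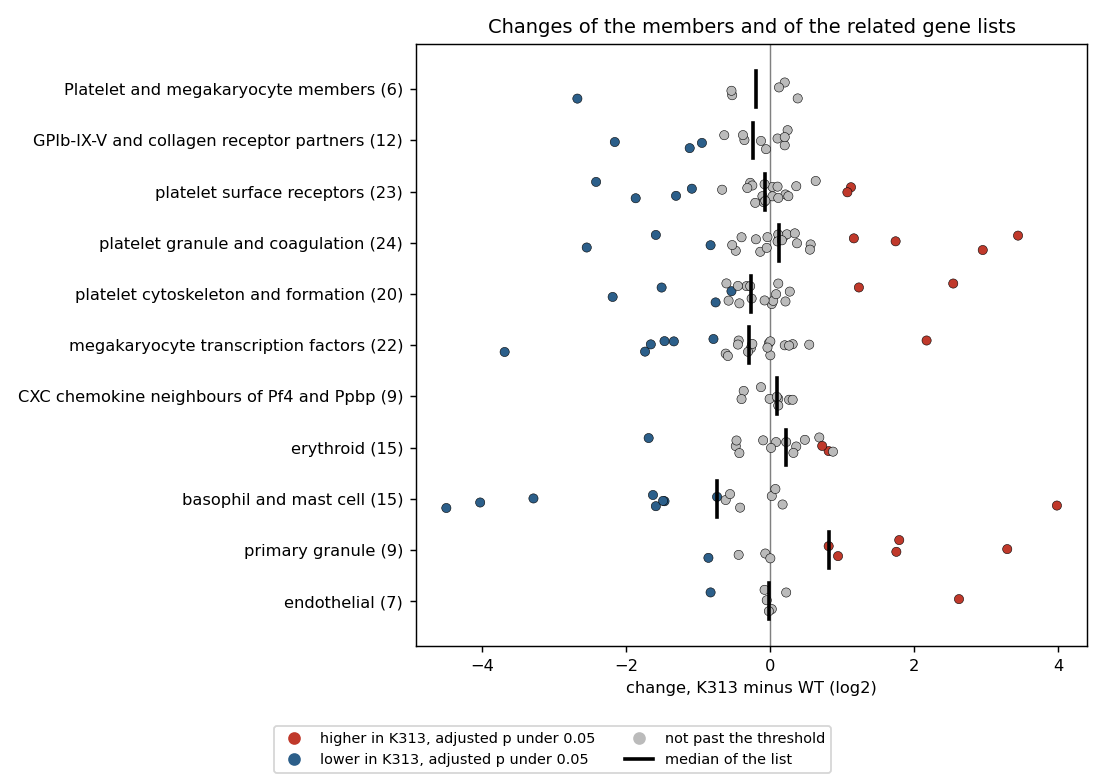
Change in log2 expression, K313 minus WT, of each measured gene in the 8-gene set and in the related lists, with the number measured in brackets, calls in colour and the median of each list as a black bar. Gp9 is the 1 coloured point in the top line, at -2.68, and the transcription factors hold 6 blue points and 1 red.

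Markers of other cell types moved in the same samples, where 3.97% of all probe sets were called lower in K313 and 3.77% higher. Of 15 basophil and mast cell genes, a list that shares Gata2 with the factors above, 8 fell (53.3%) and 1 rose (6.67%), with a median change of -0.74. Hpgds changed by -4.50 ± 0.19 and Cd200r3 by -4.03 ± 0.23, while the basophil protease Prss34 rose by 3.98 ± 0.21 (SE; limma adjusted p = 4.21e-07, 1.6e-06 and 1.16e-06). Over 9 basophil and mast cell markers the mean level ran from 11.72 to 12.10 in the K313 arrays and from 12.29 to 12.50 in the WT arrays, and 8 of the 9 lay above the receptor range in each group. The exception, at background in both groups, was Fcer1a (3.64 in K313 and 3.63 in WT). Over the 6 measured megakaryocyte and platelet markers the mean level ran from 6.13 to 6.29 in K313 and from 6.90 to 7.17 in WT. Gp9 itself is 1 of these 6, so this mean is not separate from the fall of Gp9. Itgb3 and Itga2b also fell, while Pf4, Tubb1 and Treml1 did not pass. Of 15 erythroid genes 1 fell, carbonic anhydrase 2, Car2 (-1.69 ± 0.25; adjusted p = 0.00105), and 2 rose, the anion exchanger Slc4a1 (0.81 ± 0.17; adjusted p = 0.0114) and the transferrin receptor Tfrc (0.72 ± 0.19; adjusted p = 0.0458). The erythroid master factor Klf1 averaged 4.02 in K313 and 4.50 in WT and Alas2 4.66 in K313 and 4.64 in WT, within the receptor range. The Tfrc call was lost in 8 of 14 alternatives (highest adjusted p = 0.248), and the Slc4a1 call without K313 replicate 2 and with ordinary variance (highest adjusted p = 0.103). The count of erythroid genes that rose was 0 without K313 replicate 2, 4 without K313 replicate 1, 1 without WT replicate 2, and 0 with ordinary variance. Of 9 genes on the primary granule list 5 rose (55.6%), Elane, Ctsg, Prss57, Prtn3 and Ms4a3, with neutrophil elastase, Elane, at 3.29 ± 0.28 (adjusted p = 1.94e-05). The Ms4a3 call was lost in 5 of 14 alternatives, among them without WT replicate 3 (0.67; adjusted p = 0.0759), where the count was 4. The 1 that fell, named after its values were seen, was Cst7, a cystatin (-0.86 ± 0.16; adjusted p = 0.00618). Myeloperoxidase, Mpo, on the same list, did not pass, with means of 18.42 in K313 and 18.41 in WT (limma adjusted p = 0.994). The part of any of these cell types in the falls of Gp9, Gata1 and the other transcription factors was not tested.

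The 8 probe sets whose pattern was most like that of Gp9, by the root mean square difference between mean-centred log2 values over the 6 arrays, were Klhl22 (0.087), Tinagl1 (0.108), Themis2 (0.127), Lpar1 (0.154), Dynlt1b (0.163), Selenbp1 (0.178), Lratd2 (0.209) and F10 (0.221). With 2 groups of 3 arrays this measure mostly ranks genes by a group difference close to that of Gp9. Their changes ran from -2.97 for Lratd2 to -2.45 for Themis2. F10 is the 1 gene among them that also stands on a platelet or coagulation list.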

How the data were processed

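The deposited values are log2 expression values, 1 column per array. The authors made them with RMA and the Transcriptome Analysis Console, per the submitters' processing notes, with no version of either given in the sources used here. Of 22206 probe sets, 19572 have 1 symbol in the platform annotation, 0 have several and 2634 have none. No genome build of the array design is given, so the RefSeq table of GRCm38.p6 served for chromosomes, synonyms and gene order, and its promoter table for sequence. The package limma (version 3.58.1 in R 4.3.3) fitted group means with lmFit and eBayes. The two-sided p-values were adjusted by Benjamini-Hochberg over the whole table, and those under 0.05 after adjustment were called. SE marks the error of a change. RMA gives arrays a common distribution and compresses folds at the low end. Arrays have no read depth: 3 per group limit the precision, and the median standard error was 0.18. When 22206 probe sets were simulated for this comparison, 4 of 50 changes of 0.5 were recovered, 40 of 50 of 1 and 50 of 50 of 2, and 12 of 156 calls were false. The simulation changed 50 probe sets at each size and drew normal noise from the shrunken variances. In the data 1720 probe sets were called, so these rates need not hold for them. Members and lists were chosen with earlier results of these data known. The 10 related lists hold 173 symbols, 155 of them measured. Named genes are all members, up to 4 per list with the smallest p, the nearest measured neighbours, the cell type markers and the 8 patterns most like Gp9. Outside these classes, Eif2s3y, Uty, Kdm5d and Hoxb8 are named to describe the arrays, and others are marked. The planned protein comparison was not made. Alternatives were 2 normalizations, a low-signal filter, other variance models, array weights, a replicate block, 1-symbol probe sets and leaving out each array.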

Additional observations from a re-analysis of the deposited data

How the results depend on the processing

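Gp9 kept its direction and stayed past the threshold under all 14 alternatives, between -2.84 and -2.59 (adjusted p 1.06e-06 to 0.0249). Pf4, Vwf and Gp5 kept their direction and stayed short of it under each alternative that could be run. Ppbp passed with quantile normalization (-0.57, adjusted p = 0.0415), a common median (-0.62, 0.0332) and an intensity trend (-0.54, 0.0393), which made the members lower in K313 number 2 in place of 1. The cause was not tested. Gp6 read -0.06 without K313 replicate 2, against 0.12 with all arrays, and when arrays were left out its change ran from -0.06 to 0.24. Gp5, Gp6 and Ppbp have no value with the lowest 30% of probe sets left out, since they are among them. With ordinary variance per probe set, 247 probe sets were higher and 249 lower in place of 838 and 882. Of the 101 genes of the 5 platelet, coagulation and megakaryocyte lists, 2 were then higher and 8 lower in place of 9 and 20. In that setting Gp9, Gata1, Mef2c and Itgb3 were still called. Leaving out arrays gave 575 to 776 lower probe sets. Among neighbours, 2 were lower with a common median, 2 with an intensity trend, 1 with the low-signal filter and 1 with array weights, and 0 to 1 when arrays were left out, in place of 0. The fit with a replicate block gave 1 such neighbour, kept the Gp9 call at -2.68 and gave 777 higher and 769 lower probe sets; the numbers share no stated origin, deviations of same-numbered arrays correlated at -0.061, 0.029 and -0.062, and no array correlated best with its own number, so the block was not used. Signals near the receptor range limit what can be said of Gp5, Gp6 and Ppbp.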
